A study of Drosophila melanogaster with 3 samples.

Results

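The nuclear tRNA genes of Drosophila melanogaster were taken as the Ensembl release 115 genes of the chromosome arms X, 2L, 2R, 3L, 3R and 4 whose symbol starts with tRNA, grouped by the amino acid in the symbol. There were 295 of them among 18164 genes of these arms, with transposable elements left out. They were compared with the peaks of a chromatin immunoprecipitation (ChIP-seq) experiment on CG5180, a gene known by its annotation number, whose protein carried a C-terminal eGFP tag and was precipitated with an antibody against GFP. The chromatin came from whole embryos of both sexes at 0 to 16 h of age from a single transgenic line, so that many cell types and stages were mixed. There was 1 group of 3 biological replicates, and no untagged or control library was analysed here. Every share below is therefore a description of 1 tagged line, no samples could be tested against each other, and sites that any GFP ChIP would enrich cannot be told apart from sites of CG5180. The authors deposited a list of 30000 peaks for each replicate, a pooled list of 30000 peaks, and an IDR list of 5400 peaks, where IDR (irreproducible discovery rate) keeps peaks that rank alike in several lists. The IDR list held exactly the strongest 5400 peaks of the pooled list. The pooled list is labelled as peaks and background for input to IDR. Its weaker entries, called peaks below, can therefore be background. Each peak has a summit and a signal value, a score given by the authors that can be ranked only within its own list. The read depth behind the lists is unknown.

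tRNA genes are transcribed by RNA polymerase III from promoters that lie inside the gene. The assembly factor TFIIIC binds the A box and the B box within the transcribed sequence and recruits TFIIIB, whose subunits include Brf and Bdp1, just upstream of the start, and TFIIIB in turn recruits the polymerase. A short run of T after the gene ends transcription. Flies carry many copies of most tRNA genes, often in clusters and often with identical sequence.

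Of the 295 members, 290 had the biotype tRNA and 5 were annotated as pseudogenes. Their median length was 73 bases, from 71 to 186, and 16 held an intron. They had 100 distinct sequences, 238 genes had at least 1 identical copy, and the most copied sequence occurred 13 times. Joined where gaps were at most 2000 bp, the genes formed 161 loci, of which 91 were lone genes and 70 were clusters that held 204 genes. The sources used here do not say how the authors treated reads that match several copies. The symbols named 22 groups, which are 20 amino acids, the initiator methionine (iMet) and selenocysteine (SeC). No tRNA gene was on 4.

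An IDR summit lay within 250 bp of 13 tRNA genes (4.41%), in 11 loci, and of 2.15% of places of 73 bp on the arms. Counted from the 5′ end, 3.73% of tRNA genes had one, beside 8.25% of all genes. The 13 genes belonged to 8 of the amino acid groups: Cys-GCA-1-2 and Cys-GCA-1-3, Tyr-GTA-1-4, Tyr-GTA-1-5 and Tyr-GTA-1-8, Leu-TAA-2-1, Leu-TAA-4-1 and Leu-AAG-1-3, Pro-TGG-1-5, Gly-GCC-1-2, Arg-CCT-1-2, Thr-AGT-1-2 and Ser-TGA-2-1. The cysteine genes, on 3L, are shown because the strongest peak at any tRNA gene lies among them. The proline and leucine genes shown, on 3R, are lone genes with a peak of their own. Sequences are from the Release 6 genome (dm6), each 5′ to 3′ on the strand of its gene, with the B box in capitals.
Cys-GCA-1-2: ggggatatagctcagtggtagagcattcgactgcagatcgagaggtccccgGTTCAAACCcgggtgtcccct
Cys-GCA-1-3: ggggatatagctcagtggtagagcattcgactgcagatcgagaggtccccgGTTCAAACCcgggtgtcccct
Pro-TGG-1-5: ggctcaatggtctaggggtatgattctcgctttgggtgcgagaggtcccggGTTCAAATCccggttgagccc
Leu-TAA-2-1: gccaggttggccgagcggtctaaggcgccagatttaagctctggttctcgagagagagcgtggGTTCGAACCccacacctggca
Leu-TAA-4-1: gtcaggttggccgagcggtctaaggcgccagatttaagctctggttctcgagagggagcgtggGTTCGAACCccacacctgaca
The pair of cysteine genes was identical, and the pair of leucine genes differed at 3 of 84 bases. In the leucine genes the B box read GTTCGANNC, and in the cysteine and proline genes it read GTTCAANNC.

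The tyrosine genes, on 3R, are shown because they made up 3 of the 13 members and have introns, here in capitals.
Tyr-GTA-1-4: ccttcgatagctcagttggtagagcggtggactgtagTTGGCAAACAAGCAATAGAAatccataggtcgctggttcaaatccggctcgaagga
Tyr-GTA-1-5: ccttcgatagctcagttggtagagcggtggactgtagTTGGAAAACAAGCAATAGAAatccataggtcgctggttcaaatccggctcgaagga
Tyr-GTA-1-8: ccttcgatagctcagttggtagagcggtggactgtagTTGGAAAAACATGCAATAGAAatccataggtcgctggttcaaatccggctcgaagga
Their exons were identical over 73 bases, and their introns, of 20, 20 and 21 bases, were not.

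The cysteine peak was the strongest at any tRNA gene. It covered 3L:3095364-3096774, a width of 1411 bp, with its summit at 3096272. Its signal value was 19296 (rank 33) in the pooled list, 8159 (rank 36) in replicate 1, 6790 (rank 28) in replicate 2 and 4468 (rank 37) in replicate 3. It thus stood among the strongest peaks in every list. The peak lies in an intron of Cht7, a chitinase family gene, and the nearest protein-coding TSS (transcription start site), that of Cht7, is 10518 bp from Cys-GCA-1-3 and 10896 bp from Cys-GCA-1-2. The locus holds 6 tRNA genes. Inside the peak lay Cys-GCA-1-1 (464 bp from the summit), Cys-GCA-1-2 (210 bp), Cys-GCA-1-3 (97 bp) and Lys-CTT-1-12 (332 bp). Lys-CTT-1-13 (619 bp) and Cys-GCA-1-4 (1247 bp) lay outside it. The 4 cysteine genes of the locus were identical in sequence. Cys-GCA-1-4, outside the peak, had another pooled peak of 69.4 with its summit 236 bp away. Replicates 1 and 2 had peaks of 22.2 and 63.3 within 250 bp of it, and the nearest summit of replicate 3 was at 486 bp. The summit of the cysteine peak was in none of these genes. The 300 bases around it, 3L:3096122-3096421 on the plus strand, are shown with the summit at position 151 and with the 53 bases of Cys-GCA-1-3 that fall in the window in capitals.
summit window: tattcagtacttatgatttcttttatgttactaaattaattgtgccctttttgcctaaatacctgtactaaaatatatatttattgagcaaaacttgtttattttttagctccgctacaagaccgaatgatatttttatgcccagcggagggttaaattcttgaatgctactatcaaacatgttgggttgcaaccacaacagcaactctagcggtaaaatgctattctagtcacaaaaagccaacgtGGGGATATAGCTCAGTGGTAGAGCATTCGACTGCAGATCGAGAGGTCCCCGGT

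The other 10 IDR peaks within 250 bp of tRNA genes had far lower signal values. The next was that of Tyr-GTA-1-8 (3R:8669213-8669529, 189 bp from the gene), with a signal value of 1107 (rank 549) in the pooled list and 412, 475 and 218 in replicates 1, 2 and 3. Its gene lies in an intron of CG8036 and p (pink), 444 bp from the TSS of CG8036. The peak of Leu-AAG-1-3, a gene on 2R that lies 4435 bp from the TSS of CG43107, had 571 (rank 1255) in the pooled list and 192, 222 and 151 in the replicates. Both peaks stayed within the strongest 5400 of each replicate.

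Pro-TGG-1-5, a lone gene in an intron of qin on the opposite strand, had a peak of 351 (rank 2331), with 166, 118 and 84.2 in the replicates. Arg-CCT-1-2, on 2R, had one of 330 (rank 2518), with 124, 121 and 83.6, and its nearest TSS, 4635 bp away, was that of CG16898. Leu-TAA-4-1, in an intron of jar, the myosin VI gene, had one of 292 (rank 2977), with 130, 98.3 and 72.0. These 3 peaks also ranked within the strongest 5400 in every replicate. Leu-TAA-2-1, 239 bp from the TSS of Root, had 242 (rank 3728), with 94.5, 85.2 and 50.1, and Ser-TGA-2-1, on 2R and 2063 bp from that of Fib (fibrillarin), had 232 (rank 3942), with 88.1, 79.9 and 52.6. In replicate 3 the peak of Leu-TAA-2-1 ranked 5428, just past 5400, and that of Ser-TGA-2-1 ranked 5057.

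The remaining 3 peaks each fell below rank 5400 in at least 1 replicate. The peak of Thr-AGT-1-2, on 2R in an exon of CG12831, had 280 (rank 3108) in the pooled list but ranked 3764, 1976 and 7252 in the replicates. The peak shared by Tyr-GTA-1-4 and Tyr-GTA-1-5, 2665 bp from the TSS of Cyp313b1 at the nearer gene, had 205 (rank 4646) and ranked 4386, 4408 and 6239. That of Gly-GCC-1-2, a lone gene on 2L 4279 bp from the TSS of CG42296, had 204 (rank 4664) and ranked 6411, 4251 and 8341. Thus replicate 3 placed 4 of the 11 peaks below rank 5400, and replicate 1 placed 1 there. In all, 12 of the 13 genes had a summit within 250 bp in all 3 replicate lists, and Tyr-GTA-1-5 had one in 2, with the nearest summit of replicate 2 at 263 bp.

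**Figure D1:**
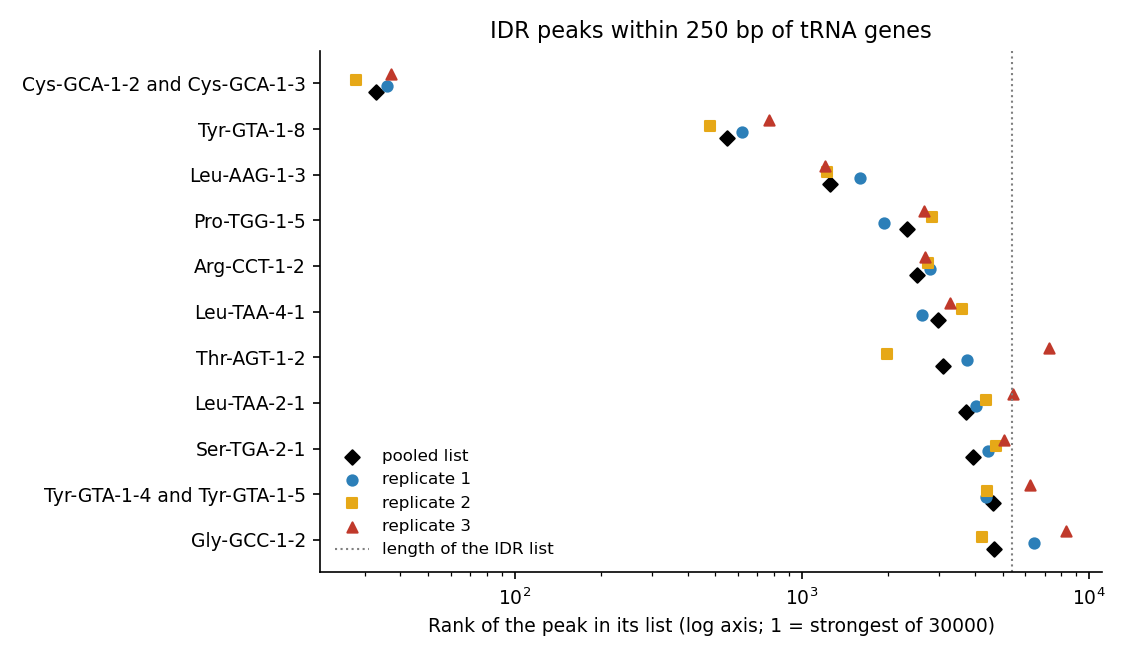
Rank of each of the 11 IDR peaks within 250 bp of a tRNA gene (log axis, 1 is the strongest of 30000) in the pooled list and the 3 replicate lists, with a dotted line at 5400, the length of the IDR list. The cysteine peak ranks between 28 and 37 in all lists, and the other 10 rank 549 or lower in the pooled list.

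The 11 peaks had a median signal value of 292, against 313 for the IDR list. No IDR summit fell inside a tRNA gene. Counted per gene, 11 summits were upstream of the gene and 2 downstream. The place of the nearest summit could differ between lists. At Leu-TAA-4-1 it was 118 bp upstream in the IDR list and inside the gene in replicates 2 and 3. Of the 13 genes, 11 were more than 1000 bp from a protein-coding TSS. The members nearest the limit on the inside were Leu-TAA-2-1 at 197 bp, Cys-GCA-1-2 at 210 bp and Tyr-GTA-1-5 at 231 bp, and on the outside Trp-CCA-2-2 at 272 bp, Glu-TTC-1-5 at 274 bp and Arg-CCT-1-3 at 282 bp.

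Another 26 genes had their nearest IDR summit over 250 and up to 1000 bp away. The 10 with the largest signal values included 3 neighbours in the cysteine locus, Cys-GCA-1-1, Lys-CTT-1-12 and Lys-CTT-1-13 (19296), and Tyr-GTA-1-7 (1107), which shares the peak of Tyr-GTA-1-8. Val-TAC-1-1 was 831 bp from a peak of 743 (replicates 256, 328 and 170) and 420 bp from the TSS of lama. Ile-AAT-1-1 was 969 bp from a peak of 482 (243, 148 and 107), with its nearest TSS that of EcR, the ecdysone receptor, 2863 bp away. Trp-CCA-2-2 and Gly-GCC-1-9 shared a peak of 472 (160, 179 and 127) and lay 287 bp from the TSS of CG30122 and 398 bp from that of CheA56a. Ile-AAT-1-9 was 490 bp from a peak of 404 (171, 181 and 73.3) and 1489 bp from the TSS of CG8517. Phe-GAA-1-2, on X, was 291 bp from a peak of 379 (131, 139 and 100) and 233 bp from the TSS of the ribosomal protein gene RpL17. At the outer limit, Ile-AAT-1-1 (969 bp), Glu-TTC-1-4 (973 bp) and Met-CAT-1-2 (978 bp) were just inside, and Glu-CTC-2-1 (1002 bp), Phe-GAA-1-7 (1079 bp) and Glu-CTC-3-2 (1110 bp) just outside.

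In the IDR list the 13 genes within 250 bp were 4.41% of the 295 (Wilson 95% interval 2.59 to 7.39). Since tRNA genes and other genes differ in length, they were compared from the 5′ end, where 11 tRNA genes (3.73%) stood beside 8.25% of all genes. Within 1000 bp there were 39 tRNA genes in 26 loci and near 27 peaks, or 13.2% (9.82 to 17.6). From the 5′ end 38 (12.9%) stood beside 15.0% of all genes. With a replicate left out, and a peak asked to be among the strongest 5400 of both others, the 13 became 8 without replicate 1, 8 without replicate 2 and 12 without replicate 3. A place of 73 bp anywhere on the arms had an IDR summit within 250 bp in 2.15% of positions and within 1000 bp in 6.96%. All intervals cover counting error only, and because genes of a cluster share peaks they are too narrow.

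In the whole pooled list the order of the shares was the other way round. A pooled summit lay within 250 bp of 106 tRNA genes in 65 loci, or 35.9% (30.7 to 41.6). From the 5′ end there were 101 (34.2%), beside 22.4% of all genes. Within 1000 bp there were 192 genes in 101 loci, or 65.1% (59.5 to 70.3). From the 5′ end there were 191 (64.7%), beside 39.3% of all genes. The other 103 tRNA genes had no pooled summit within 1000 bp. For comparison, places of 73 bp had one in 11.2% and 29.1% of positions.

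The 100 pooled peaks within 250 bp of a tRNA gene were of ordinary strength, with a median signal value of 79.6 against 80.7 for the list. In successive blocks of 5000 ranks from the strongest there were 11, 19, 20, 20, 15 and 15 of them. Among the strongest 5000 pooled peaks, tRNA genes had a summit within 250 bp of the 5′ end in 3.73% and all genes in 7.81%. Among the strongest 10000 these were 11.5% and 13.0%, among 15000 they were 19.7% and 16.3%, and among 20000 they were 26.4% and 19.0%. The tRNA share thus passed that of all genes between ranks 10000 and 15000. Within 1000 bp the crossing came earlier, with 11.9% and 14.1% at 5000 peaks and 30.2% and 22.8% at 10000.

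**Figure D2:**
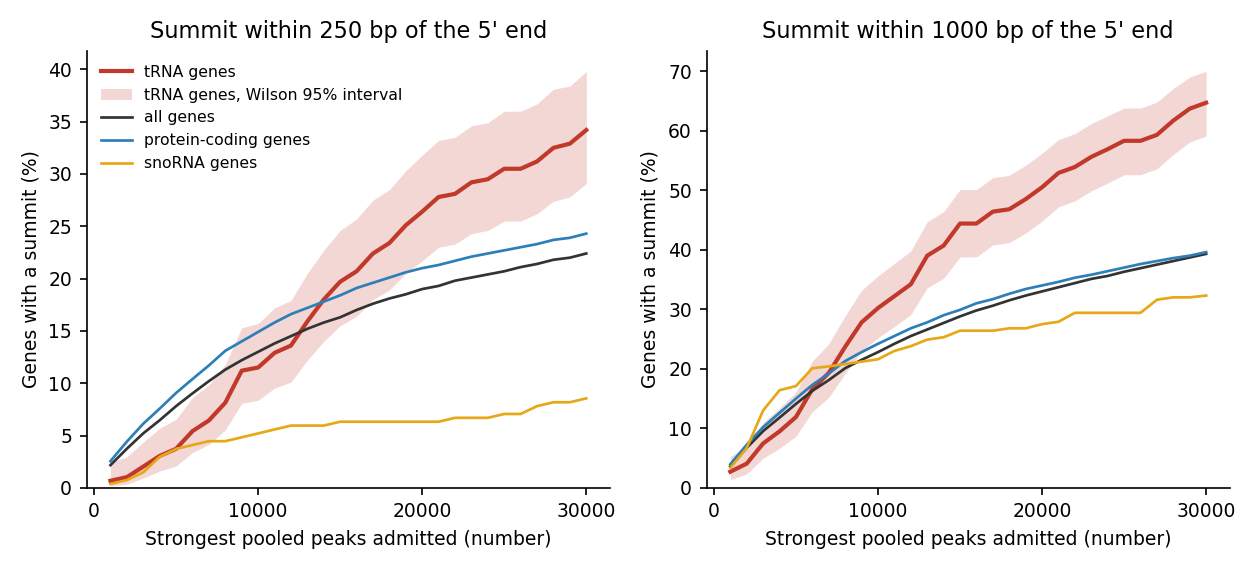
Share of genes (%) with a pooled summit within 250 bp (left) or 1000 bp (right) of the 5′ end, as peaks are admitted from the strongest to all 30000, for tRNA genes with their Wilson 95% band, all genes, protein-coding genes and snoRNA genes. The tRNA curve starts below that of all genes and ends above it, at 34.2% against 22.4% on the left and 64.7% against 39.3% on the right.

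The difference from all genes was smaller among peaks found in every replicate. Of the pooled peaks, 13469 (44.9%) had a summit within 200 bp in all 3 replicate lists. With those alone, 44 tRNA genes (14.9%) had a summit within 250 bp. From the 5′ end there were 41 (13.9%), beside 14.3% of all genes, so that no excess over all genes was seen within 250 bp. Places of 73 bp had such a summit within 250 bp in 5.16% of positions and within 1000 bp in 15.4%. Within 1000 bp there were 110 (37.3%), and from the 5′ end 106 (35.9%), beside 25.5% of all genes. Lone tRNA genes, again from the 5′ end, had such a peak within 1000 bp in 23 of 91 cases (25.3%, 17.5 to 35.1), close to the share of all genes, while genes in loci of 2 had one in 32 of 76 (42.1%) and genes in loci of 3 or more in 51 of 128 (39.8%). In the whole pooled list lone genes had a summit there in 50 cases (54.9%, 44.7 to 64.8), above the 39.3% of all genes. With 1 replicate left out and a peak asked for in both others, the 106 genes became 54, 54 and 58 and the 192 genes 125, 123 and 131, without replicates 1, 2 and 3.

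Taken 1 replicate at a time, 88, 99 and 102 tRNA genes had a summit within 250 bp in replicates 1, 2 and 3, a mean of 96.3 ± 7.37 (SD, n = 3). From the 5′ end these were 83, 93 and 91 genes, or 28.1%, 31.5% and 30.8%, beside 21.6%, 24.2% and 25.6% of all genes. Within 1000 bp there were 181, 188 and 187 (185 ± 3.79). From the 5′ end the shares were 60.3%, 63.7% and 63.1%, beside 40.4%, 42.6% and 45.1% of all genes. The share of tRNA genes was the higher one in each of the 3 lists.

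When each replicate was reduced to its strongest 5400 peaks, 17, 19 and 13 tRNA genes had a summit within 250 bp (16.3 ± 3.06). From the 5′ end the shares were 4.75%, 5.76% and 3.39%, beside 7.83%, 8.65% and 9.39% of all genes, the lower in each replicate. Within 1000 bp there were 46, 43 and 39 genes (42.7 ± 3.51). There the shares from the 5′ end were 14.6%, 13.9% and 12.9%, beside 14.4%, 15.7% and 16.3% of all genes, with tRNA genes slightly higher in replicate 1 and lower in the others. The counts were similar between replicates, but the genes were less so. Of the 106 genes with a pooled summit within 250 bp, 46 had one in all 3 replicate lists, 33 in 2, 20 in 1 and 7 in none. Of the 192 genes within 1000 bp, 124 had one in all 3 lists, and of the 39 with an IDR summit all 39 did.

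Around the genes, pooled summits were denser at and next to the gene than farther off. There were 20 inside tRNA genes, a density of 0.893 per kb against 0.224 over the arms. The density was 0.780 in the 100 bp upstream and 0.915 in the 100 bp downstream. Inside the genes replicates 1, 2 and 3 had 0.625, 0.715 and 0.536, each below the 0.847, 0.881 and 0.814 of the 100 bp upstream, so the order of these zones differed between the lists. Beyond those and up to 250 bp it was 0.836 upstream and 0.475 downstream, and from there to 500 bp it was 0.515 on both sides. Between 1000 and 2000 bp it was still 0.434 and 0.407, above the mean of the arms. Within 250 bp, outside the gene, 60 pooled summits were upstream and 48 downstream, and the replicate lists gave 52 and 38, 60 and 45, and 60 and 43. A summit near several genes of a cluster was counted for each. Around the 91 lone genes the pooled density was 0.714 inside the gene, from 5 summits, with 0.428, 0.856 and 0.714 in the replicates. It was 0.549 and 0.440 in the 100 bp upstream and downstream, 0.733 and 0.440 from there to 250 bp, and 0.242 and 0.286 between 1000 and 2000 bp.

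**Figure D3:**
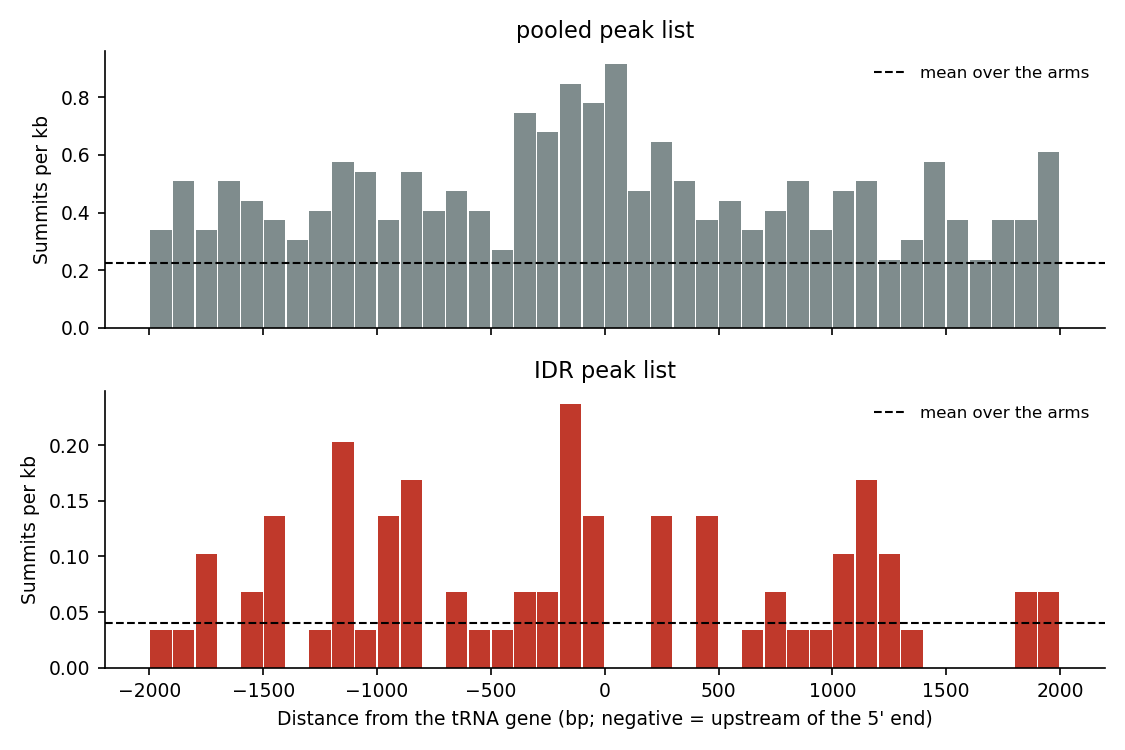
Summits per kb in steps of 100 bp upstream (negative) and downstream of the 295 tRNA genes, for the pooled list (top) and the IDR list (bottom, on its own scale), with the mean over the arms dashed; summits inside the genes are left out. A summit near several genes is counted for each. Pooled summits are denser next to the genes than toward 2000 bp. The IDR summits within 250 bp, from 11 peaks and counted 13 times, are mostly upstream.

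The amino acid groups differed in their counts, and most are small. An IDR summit lay within 250 bp of a gene in 8 of the 22 groups, and within 1000 bp in 18, all but Asn, Asp, His and SeC. Within 250 bp Tyr had 3 of 10 genes (30.0%, 10.8 to 60.3), Leu 3 of 22 and Cys 2 of 7, while Arg, Gly, Pro, Ser and Thr had 1 each. Within 1000 bp the counts in the IDR list were 4 of 21 for Glu, 4 of 10 for Tyr, 3 of 26 for Arg, 3 of 7 for Cys, 3 of 20 for Gly and 3 of 22 for Leu. There were 2 each for iMet, Ile, Lys, Phe, Ser, Thr and Val, and 1 each for Ala, Gln, Met, Pro and Trp. Of all genes, 8.25% had an IDR summit within 250 bp of the 5′ end and 15.0% within 1000 bp. Leu had 13.6% and Gly 15.0% within 1000 bp of the gene, near that share. The 3 Cys genes share the cysteine peak, and 3 of the 4 Glu genes, Glu-TTC-1-4, Glu-TTC-1-5 and Glu-TTC-1-6, share a peak of 333.

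In the pooled list within 1000 bp, Leu had 20 of 22 genes (90.9%, 72.2 to 97.5), with 18, 19 and 20 in the replicates. All 6 iMet genes had a pooled summit there, but 5, 5 and 3 in the replicates. Glu had 18 of 21 (13, 17 and 18 in the replicates), Pro 15 of 17 (11, 11 and 15) and Gln 10 of 12 (10, 8 and 8). At the low end Ser had 6 of 20 (30.0%, 14.5 to 51.9; 9, 5 and 10 in the replicates), Trp 2 of 8 (3, 4 and 5) and Phe 2 of 8 (3, 6 and 2). The intervals of Leu and Ser do not overlap, and the replicate counts of Leu exceeded those of Ser in each list. Such intervals are too narrow where genes share peaks. Of all tRNA genes 65.1% had a pooled summit within 1000 bp. Of all genes 39.3% did from the 5′ end, a share inside the interval of Ser. With peaks found in all 3 replicates, Leu had 15 of 22 (68.2%, 47.3 to 83.6) and Ser 4 of 20 (20.0%, 8.07 to 41.6). Those groups were picked among the extremes of 22, and no test was made. Of the 20 Ser genes 8 are on X, where 1 had a pooled summit within 1000 bp, and of the 12 on other arms 5 did (41.7%, 19.3 to 68.0), an interval that does not overlap that of Leu. In the replicates 8, 5 and 10 of those 12 had one. With peaks found in all 3 replicates 4 of the 12 did (33.3%, 13.8 to 60.9), an interval that overlaps that of Leu. In the other groups the pooled counts were 16 of 26 for Arg, 14 of 18 for Thr, 12 of 17 for Ala, 12 of 20 for Gly, 10 of 15 for Val, 9 of 12 for Ile, 9 of 19 for Lys, 8 of 10 for Tyr, 6 of 10 for Asn, 6 of 14 for Asp, 4 of 7 for Cys, 3 of 6 for Met, 3 of 6 for His and 1 of 1 for SeC.

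**Figure D4:**
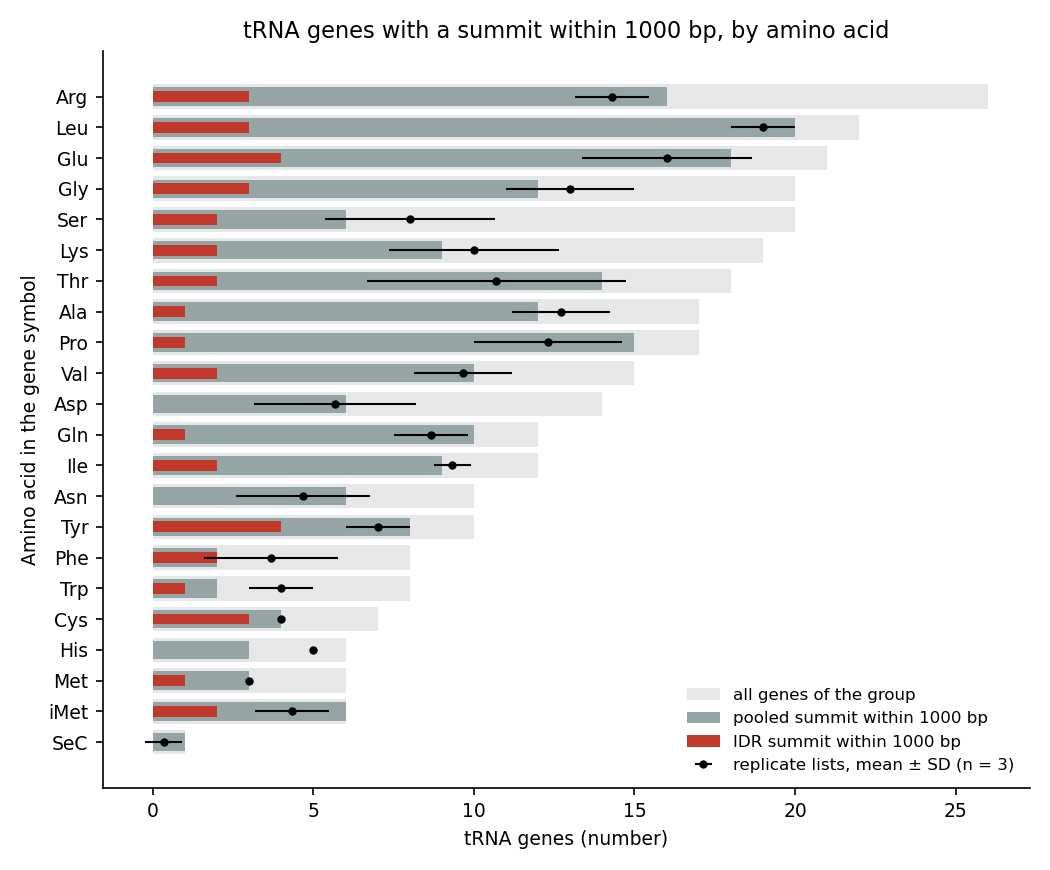
Number of tRNA genes by amino acid (light bars), with a pooled summit within 1000 bp (dark bars) and with an IDR summit within 1000 bp (red bars); points and lines are the mean ± SD of the 3 replicate lists. Leu has 20 of 22 genes with a pooled summit and Ser 6 of 20, while no group has more than 4 genes with an IDR summit.

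The 16 genes with an intron had an IDR summit within 250 bp in 3 cases (18.8%, 6.59 to 43.0), which are the 3 tyrosine genes, and the 279 others in 10 (3.58%, 1.96 to 6.47). In the pooled list these were 10 of 16 and 96 of 279. For the genes with an intron the replicates gave 5, 3 and 10 of 16, the pooled count being that of replicate 3, and peaks found in all 3 replicates gave 4 of 16, against 40 of the 279 others. Over the whole gene, intron included, genes with a unique sequence had an IDR summit within 250 bp in 6 of 57 cases (10.5%, 4.91 to 21.1), those with 2 to 4 identical copies in 4 of 58, and those with 5 or more in 3 of 180 (1.67%, 0.568 to 4.78). The 6 include the 3 tyrosine genes, which are unique only through their introns. The share of all genes from the 5′ end, 8.25%, lies inside the first interval and above the last. In the pooled list the shares within 250 bp were 42.1%, 43.1% and 31.7%, and within 1000 bp they were 66.7%, 65.5% and 64.4%. The part of reads that match several copies in these shares was not tested.

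The letters of the polymerase III promoter elements were counted in genes with and without a peak, with no test. The B box, read as GTTCGANNC or GTTCAANNC on the strand of the gene, was in 274 of the 295 genes (92.9%), in all 13 genes with an IDR summit within 250 bp, in 86 of the 93 with a pooled summit alone (92.5%) and in 175 of the 189 with none (92.6%). The form GTTCGANNC was in 162 of 295, 7 of 13, 48 of 93 and 107 of 189. An A box was found in 270 of 295, 12 of 13, 84 of 93 and 174 of 189. A run of TTTT in the 25 bases after the gene was in 271 of 295, 12 of 13, 86 of 93 and 173 of 189, and the letters TATA in the 50 bases before it were in 65 of 295, 3 of 13, 15 of 93 (16.1%) and 47 of 189 (24.9%). These are matches of letters and not sites shown to be bound.

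The pooled share within 250 bp was lowest for the genes farthest from a protein-coding TSS. It was 7 of 13 tRNA genes (53.8%) within 250 bp of a TSS, 31 of 68 (45.6%, 34.3 to 57.3) from there to 1000 bp, 39 of 101 (38.6%, 29.7 to 48.4) from there to 5000 bp and 29 of 113 (25.7%, 18.5 to 34.4) beyond. From the 5′ end 22.4% of all genes had a pooled summit within 250 bp, a share inside the interval of the farthest class. The replicate shares averaged 46.2% ± 7.69, 36.3% ± 5.16, 37.6% ± 3.43 and 24.5% ± 1.84 (SD, n = 3) from the nearest class to the farthest, so the middle classes were not in the pooled order. Peaks found in all 3 replicates gave 15.4%, 17.6%, 18.8% and 9.73%, and the IDR list gave 1, 1, 8 and 3 genes, with no such order.

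**Figure D5:**
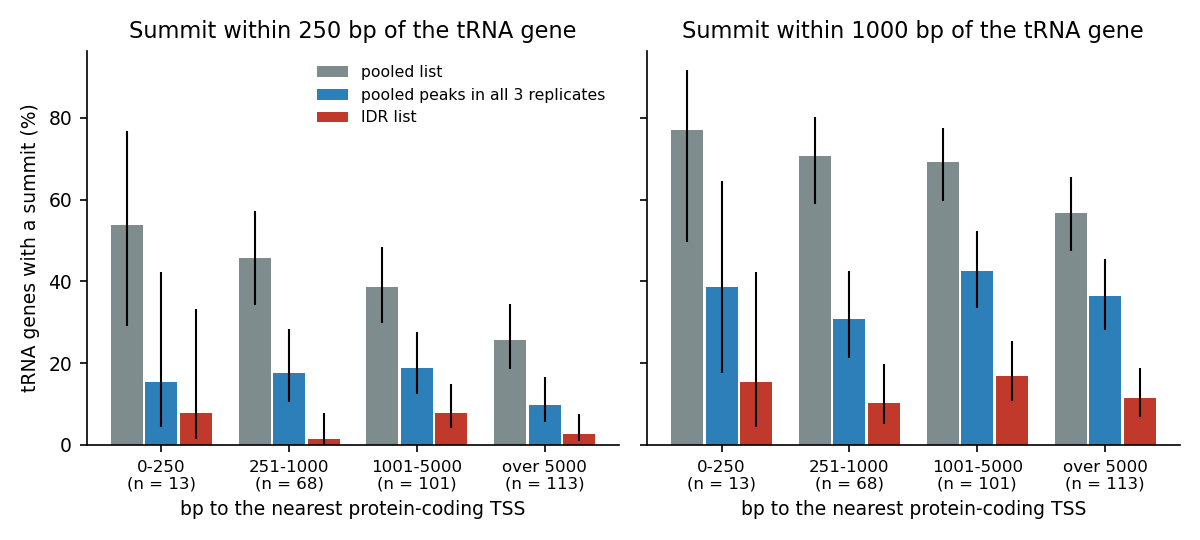
Share of tRNA genes (%) with a summit within 250 bp (left) or 1000 bp (right), by the distance of the gene to the nearest protein-coding TSS, for the pooled list, pooled peaks found in all 3 replicates and the IDR list; error bars are Wilson 95% intervals. On the left the pooled share goes from 53.8% to 25.7% with distance, while the IDR bars hold 1, 1, 8 and 3 genes.

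By position, 158 tRNA genes lay outside protein-coding genes, of which 57 had a pooled summit within 250 bp and 100 within 1000 bp. Of 73 in introns on the opposite strand 29 and 54 did, and of 57 in introns on the same strand 14 and 31 did. Of all genes, 22.4% and 39.3% did from the 5′ end. The same-strand intron share within 250 bp, 24.6% (15.2 to 37.1), was near that of all genes. The shares outside protein-coding genes and in opposite-strand introns were 36.1% and 39.7%. The 7 in exons are too few to set apart. Among the arms X stood low. Of its 26 tRNA genes, in 15 loci, 4 (15.4%, 6.15 to 33.5) had a pooled summit within 1000 bp, beside 39.8% of all genes of X from the 5′ end. These were Phe-GAA-1-2 and, named after their values were seen, Pro-CGG-2-1, Ser-AGA-2-2 and Gln-TTG-2-1. The low shares of X and of Ser rest in part on the same 8 genes, and without them 3 of 18 genes of X (16.7%, 5.84 to 39.2) had a pooled summit within 1000 bp. These 18 are not independent either. An X locus of 7 Arg and Ser genes, with Ste12DOR as nearest protein-coding gene, had no summit of any list within 1000 bp. Its Arg genes remain among the 18. On 2L, 2R, 3L and 3R the counts were 32 of 41, 72 of 100, 37 of 49 and 47 of 79, or 78.0%, 72.0%, 75.5% and 59.5%. The replicate means were 4.33 ± 1.53 genes on X and 28.0 ± 3.46, 72.0 ± 4.58, 32.7 ± 3.79 and 48.3 ± 2.31 on those 4 arms.

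Other classes of small RNA genes were compared from the 5′ end. The 269 snoRNA genes, whose RNAs guide RNA modification and are mostly made by RNA polymerase II, had an IDR summit within 250 bp in 4.09%, near the 3.73% of tRNA genes, but a pooled one in 8.55%, against 34.2%. The 26 snRNA genes made by RNA polymerase II had a pooled summit within 250 bp in 9 cases (34.6%, 19.4 to 53.8), about the share of tRNA genes, and within 1000 bp in 13. With peaks found in all 3 replicates, 7 of these 26 (26.9%, 13.7 to 46.1) had one within 250 bp, against 13.9% of tRNA genes, and 2 had an IDR summit. Protein-coding genes had 9.57% and 24.3% within 250 bp in the IDR and pooled lists. The 96 genes of 5S rRNA, which is also made by RNA polymerase III, form 1 array and had no summit of the IDR or pooled list within 250 bp. Taken as independent genes this would allow a share of up to 3.12%, but genes of 1 array are not independent. The sources used here do not say how reads were assigned within such an array. Of 10 other polymerase III genes, snRNA:7SKa had an IDR peak of 322 (rank 2596) at 207 bp, with 120, 126 and 31.5 in the replicates, and RNaseMRP:RNA had a pooled peak of 75.0 at 72 bp. The U6, 7SL, RNase P and U6atac genes had no IDR or pooled summit within 250 bp.

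Genes for the proteins that make and use tRNAs were listed by role, and those with an IDR summit no more than 250 bp from a TSS were counted. Of 67 found by symbol, 10 had such a summit (14.9%), beside 12.0% of protein-coding genes. Of 17 polymerase III subunits 3 did, namely Polr2E (487; 191, 177 and 115 in the replicates), Polr3E (333; 253, 347 and 79.1) and Polr2H (203; 66.9, 38.6 and 94.6, shared with CG11247). Polr2E and Polr2H encode subunits common to the nuclear RNA polymerases. Of 11 genes of initiation and its regulation 2 did, the TFIIIB subunits Bdp1 (811, with 340, 261 and 207, shared with CG6565) and Brf (529, with 183, 196 and 150, shared with sds22).

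None of 19 genes of tRNA maturation had an IDR summit, beside 12.0% of protein-coding genes, and 5 had a pooled one. From the 5′ end alone 24.3% of protein-coding genes had a pooled summit within 250 bp. Lists this short are too small to set apart. Of 18 aminoacyl-tRNA synthetases, which charge tRNAs with amino acids, 4 had an IDR peak. These were IleRS (414), HisRS (387, shared with Bx), GlyRS (234, shared with Plp and sstn) and AspRS (223, shared with Nmda1). The IleRS peak had a counterpart within 200 bp in replicates 1 (161) and 3 (110) and none in replicate 2, and the other 3 had one in every replicate. For export and delivery only eEF1alpha1 and eEF1alpha2 were found by symbol, so no export gene was counted. Of these 2, eEF1alpha1, whose product brings charged tRNAs to the ribosome, had a peak of 312 (91.0, 133 and 91.8).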

How the data were processed

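Per the labels, the assay was ChIP-seq with an antibody against GFP on whole embryos, with chromatin sonicated to 200 to 800 bp. The authors deposited peak lists on dm6, whose signal value (column 7) is a score without a fixed range. Per the README notes deposited with the files, a replicate's alignments, with 1 more file, gave its list, all 3 replicates together gave the pooled list, and these lists gave the IDR list. No source used here gives the aligner, caller, IDR threshold, their versions or the read depth. The dm3 lists were not used.

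A gene was counted when a summit lay within 250 or 1000 bp of its nearest base, or of its 5′ end for comparison with other genes. Shares have Wilson 95% intervals, and a count of 0 allows up to 3 counts. With 1 group and no control library, no test was made. A pooled peak was found in a replicate when a summit lay within 200 bp. Named genes were those with an IDR summit within 250 bp, the 10 with the largest signal value among those farther off and within 1000 bp, those just inside and outside these limits, the protein-coding gene whose TSS is nearest to each, and pathway genes with an IDR summit. The members and lists were chosen with earlier results of these data known. Of the 79 pathway symbols given, some of them alternatives, 67 matched a gene. The counting was tested on simulated peaks. Python 3.11.15, numpy 2.4.6, pandas 2.3.3 and matplotlib 3.10.9 were used.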

Additional observations from a re-analysis of the deposited data

How the results depend on the processing

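Of 51 alternatives, 23 were counted as moving the value and 28 as not moving it, by a wide allowance. Among those 28, the 106 genes with a pooled summit within 250 bp became 149 at 500 bp. They became 146 when any part of a peak counted. The 39 genes with an IDR summit within 1000 bp became 27 without replicate 1, also counted as not moved. The 13 tRNA genes with an IDR summit within 250 bp became 24 at 500 bp, 4 at 100 bp, 23 when any part of a peak counted, 6 with only the peaks above the list's median signal, and 8 to 12 when a replicate was left out. The 39 within 1000 bp became 24, 4 and 21 at 500 bp, at 100 bp and above the median signal, and 27 to 31 without a replicate. The 106 with a pooled summit within 250 bp became 65 at 100 bp, 61 above the median signal, 68 when only genes over 1000 bp from a protein-coding TSS counted, 65 with each locus counted once, and 54 to 58 without a replicate. The 192 within 1000 bp became 65 at 100 bp, 101 by locus and 123 to 131 without a replicate. With only pooled peaks found in all 3 replicates, an alternative added after the data were seen, they became 44 and 110. These alternatives admit fewer or more peaks or genes by construction, and leaving out a replicate keeps only peaks found in both others. The pooled share beyond 5000 bp from a TSS was 56.6% within 1000 bp and 25.7% within 250 bp. No paired analysis was possible because there is 1 group.

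Signal values could not be scaled between lists, the read depth is unknown, and no control library was analysed here. Genes of a cluster share peaks, and the treatment of reads matching several identical tRNA genes is unknown, so counts per gene are not independent.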
